A study of Mus musculus with 6 samples.

Results

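Open chromatin of pc-BMACs was compared with that of immature B cells in mouse bone marrow, using the 2 peak lists of each population, 4 of the 6 libraries of the series. Overlapping peaks of the 4 lists (from 1 bp) were joined into 65973 merged regions, and 22648 of these were called in both lists of one population and in neither list of the other. They are called group-only regions here. Both populations came from unimmunised Adig mice, which carry a GFP reporter of Aire, on the Balb/c background. The gate for pc-BMACs was AireGFP+B220-CD138+TACI+, and their label is hematopoietic cell. That for immature B cells, labelled B cell, was AireGFP-B220+CD138-TACI-IgM+. Plasma cells, gated on AireGFP-B220-CD138+TACI+, gave the other 2 libraries and are used here only as an outside reference. Each library was made from 2000 to 15000 sorted cells, and the labels leave it unsaid if the 2 libraries of a group are from different mice. The reporter, B220, CD138, TACI and, in the B cell gate, IgM were sorting criteria, so accessibility at Aire, Ptprc, Sdc1, Tnfrsf13b and Ighm is described and not tested.

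ATAC-seq uses a transposase that cuts and tags accessible DNA, so peaks mark promoters, enhancers and other sites freed of nucleosomes. Immature B cells have just assembled a surface immunoglobulin under the transcription factors Pax5 and Ebf1, and plasma cells are the end stage of the lineage, in which Prdm1, Irf4 and Xbp1 shut the B cell programme down and build the machinery that secretes antibody. Aire is the autoimmune regulator that drives tissue-restricted antigens in the thymus, where non-canonical NF-kB signalling is needed for the cells that express it.

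Promoters that differed between the populations are shown first, as examples at the start sites of B lineage genes: 4 called in both pc-BMAC lists and neither immature B list, and 4 with the opposite pattern. Each sequence is the RefSeq promoter of GRCm38.p6, the assembly behind mm10, from 250 bases before to 50 bases after the start site, written 5′ to 3′ on the gene's strand. Capitals mark matches to the motifs that are spelled out with the promoter counts further on. The pc-BMAC promoters are those of Tnfrsf13b (TACI, a receptor for the survival factors BAFF and APRIL, at chr11:61126505-61126804, plus strand), Tnfrsf17 (BCMA, the APRIL receptor that keeps plasma cells alive, at chr16:11313559-11313858, plus strand), Jchain (the joining chain of secreted IgM and IgA, at chr5:88527848-88528147, minus strand) and Cd80 (a ligand that costimulates T cells, at chr16:38458683-38458982, plus strand). All 4 were also called in both plasma cell lists.
Tnfrsf13b: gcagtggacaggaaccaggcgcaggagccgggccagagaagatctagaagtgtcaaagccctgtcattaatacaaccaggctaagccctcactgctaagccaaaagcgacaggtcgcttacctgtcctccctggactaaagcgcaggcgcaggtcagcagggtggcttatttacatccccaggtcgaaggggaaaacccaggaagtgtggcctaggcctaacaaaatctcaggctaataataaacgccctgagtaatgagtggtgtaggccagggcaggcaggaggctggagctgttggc
Tnfrsf17: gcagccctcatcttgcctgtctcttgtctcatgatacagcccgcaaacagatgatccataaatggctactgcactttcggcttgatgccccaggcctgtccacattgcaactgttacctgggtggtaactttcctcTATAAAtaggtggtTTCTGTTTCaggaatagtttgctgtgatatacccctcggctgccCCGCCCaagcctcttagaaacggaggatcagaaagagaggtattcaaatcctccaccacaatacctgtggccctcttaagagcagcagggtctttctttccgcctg
Jchain: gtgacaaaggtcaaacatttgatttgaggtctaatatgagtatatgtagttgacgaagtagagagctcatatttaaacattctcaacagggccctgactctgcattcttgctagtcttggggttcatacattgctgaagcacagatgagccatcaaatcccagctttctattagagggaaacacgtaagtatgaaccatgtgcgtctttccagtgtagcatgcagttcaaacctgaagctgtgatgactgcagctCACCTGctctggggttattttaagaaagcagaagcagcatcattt
Cd80: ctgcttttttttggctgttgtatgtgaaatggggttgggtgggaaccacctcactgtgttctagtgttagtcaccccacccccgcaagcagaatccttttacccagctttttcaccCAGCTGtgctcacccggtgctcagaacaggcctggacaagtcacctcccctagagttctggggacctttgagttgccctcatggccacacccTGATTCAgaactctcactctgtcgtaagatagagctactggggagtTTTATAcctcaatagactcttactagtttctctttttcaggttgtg
The immature B promoters are those of Rag1 and Rag2 (the recombinase that joins immunoglobulin gene segments, at chr2:101649483-101649782 on the minus strand and chr2:101624462-101624761 on the plus strand), Igll1 (a part of the surrogate light chain, at chr16:16863936-16864235, minus strand) and Il7r (the receptor chain for the pro-B cell growth factor IL-7, at chr15:9529827-9530126, minus strand). The plasma cell 1 list had 3 of the 4, all but Rag1, and plasma cell 2 had all 4.
Rag1: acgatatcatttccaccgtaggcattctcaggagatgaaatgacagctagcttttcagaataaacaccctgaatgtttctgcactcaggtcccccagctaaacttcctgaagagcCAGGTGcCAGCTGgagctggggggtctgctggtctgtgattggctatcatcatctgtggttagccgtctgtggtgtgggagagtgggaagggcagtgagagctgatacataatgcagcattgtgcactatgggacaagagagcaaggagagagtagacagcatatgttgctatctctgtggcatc
Rag2: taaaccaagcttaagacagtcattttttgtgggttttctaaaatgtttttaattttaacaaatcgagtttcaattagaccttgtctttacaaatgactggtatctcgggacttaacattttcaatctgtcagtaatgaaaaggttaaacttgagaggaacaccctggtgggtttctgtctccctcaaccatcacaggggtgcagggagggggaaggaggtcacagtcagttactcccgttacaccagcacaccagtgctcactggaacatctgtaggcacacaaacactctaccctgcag
Igll1: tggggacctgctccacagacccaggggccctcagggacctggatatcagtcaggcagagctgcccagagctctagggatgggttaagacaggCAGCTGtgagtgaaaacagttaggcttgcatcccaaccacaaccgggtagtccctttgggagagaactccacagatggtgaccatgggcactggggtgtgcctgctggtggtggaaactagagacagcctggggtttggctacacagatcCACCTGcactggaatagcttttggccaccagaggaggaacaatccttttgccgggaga
Il7r: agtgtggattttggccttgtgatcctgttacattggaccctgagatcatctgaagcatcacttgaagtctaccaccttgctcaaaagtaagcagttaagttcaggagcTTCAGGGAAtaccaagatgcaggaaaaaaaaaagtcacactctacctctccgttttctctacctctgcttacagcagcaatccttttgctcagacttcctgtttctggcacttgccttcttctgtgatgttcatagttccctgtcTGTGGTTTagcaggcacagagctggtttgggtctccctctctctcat
The searched motifs, which are listed further on, had no match in the Tnfrsf13b and Rag2 windows. In Rag1 a CAGGTG E-box at bases 116 to 121 and a CAGCTG E-box at bases 123 to 128 lay 1 base apart. The same pair of E-boxes stood at bases 243 to 248 and 93 to 98 of Igll1, and Jchain held a CAGGTG E-box at bases 256 to 261, all positions counted from 1 at the 5′ end of the window. Tnfrsf17 held a TATA box at bases 137 to 142, a spaced pair of IRF half-sites at bases 151 to 159 and a GC box at bases 195 to 200. These are matches of letters, not measured binding sites. The 8 promoters were chosen after their calls were seen. Tnfrsf13b alone among them kept its pattern under all 9 alternatives that change the calls, while the other 7 lost it under 1 or 2, Rag1 with the widest 34070 peaks among others.

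The 2 pc-BMAC lists held 38607 and 34070 peaks, which covered 28.7 and 23.4 Mb with median widths of 523 and 489 bp. The immature B lists held 51643 and 46534 peaks, covering 36.9 and 26.0 Mb with median widths of 453 and 386.5 bp. Both immature B lists were thus longer, with narrower peaks. The base pairs common to a pair of lists, as a share of those in either (the Jaccard index), came to 0.728 for the pc-BMAC pair and 0.652 for the immature B pair, against 0.430 to 0.474 for the 4 pairs across populations. The lists give no read counts, so depth is unknown, and a region that was not called is not shown to be closed. With 2 libraries a group, the smallest two-sided p that an exact permutation over libraries allows is 0.33, so counts are described without a p-value. In a sorted population, fewer cells with a site open and less accessibility per cell cannot be told apart.

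Immature B cells had more regions of their own than pc-BMACs. Of the 65973 merged regions, 15872 (24.1%) were called in both immature B lists alone and 6776 (10.3%) in both pc-BMAC lists alone, while 22356 (33.9%) were called in all 4. Patterns that joined 1 library of each population and no other were rare, from 82 to 525 regions. When each library was cut to its 34070 widest peaks, the counts were 8029 and 8025. That setting makes the lists equally long and changes list length and peak width together, and which of these moved the counts was not tested. The numbers also moved with single libraries. Without pc-BMACs 2 the pc-BMAC-only count was 10493, and without immature B cells 2 the immature-B-only count was 23521.

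**Figure D1:**
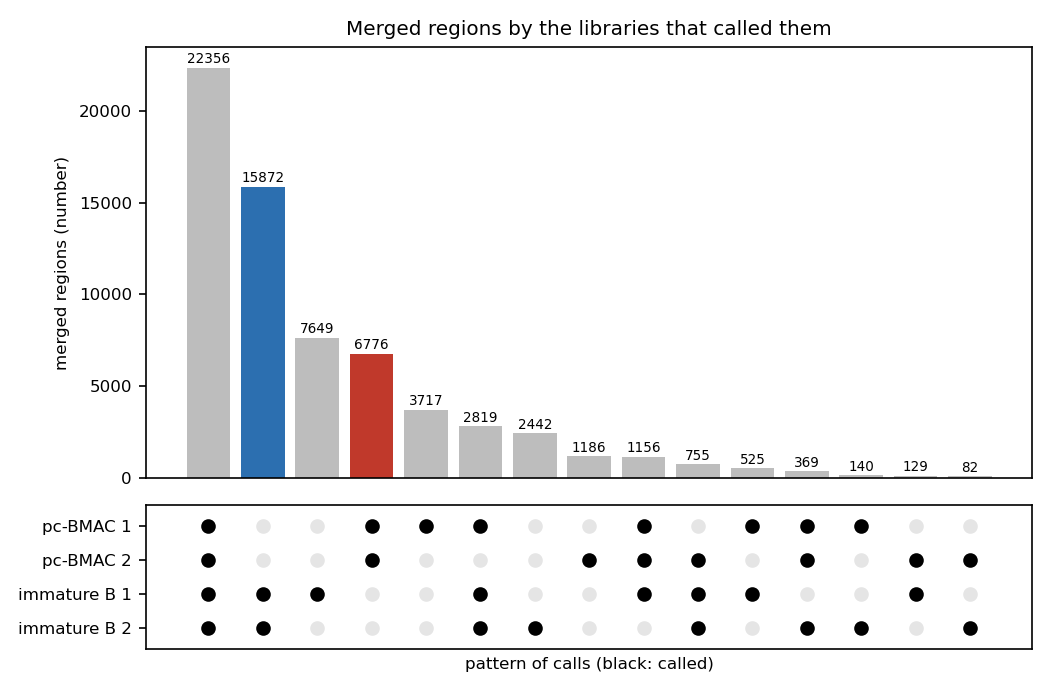
Number of merged regions (vertical axis) for each pattern of calls over the 4 libraries, with black dots below marking the libraries that called the region. The red bar is the 6776 regions of pc-BMACs alone, the blue bar the 15872 regions of immature B cells alone, and the 22356 regions of all 4 libraries form the tallest bar.

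Group-only regions of both kinds were narrower than regions called in all 4 libraries and mostly lay away from gene ends. Median widths were 444 bp for pc-BMAC-only regions and 370 bp for immature-B-only regions, against 1088 bp for regions called in all 4 libraries and 440 bp for all merged regions. Only 8.22% and 6.73% of them lay within 1 kb of either end of a protein-coding gene, against 44.2% of the regions called in all 4 and 20.1% of all merged regions. The directions differed in where the rest lay: 71.4% of pc-BMAC-only regions overlapped a gene interval, as did 75.5% of the regions called in all 4, but 52.2% of immature-B-only regions did. The median distance to a gene end was 16.6 kb for pc-BMAC-only and 19.8 kb for immature-B-only regions.

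Plasma cell lists, which played no part in choosing the regions, held a larger share of the pc-BMAC-only regions than of the immature-B-only regions. Plasma cells 1 and 2 called 51.2% and 41.2% of the pc-BMAC-only regions, a mean of 46.2% ± 7.05 (SD, n = 2 libraries). Of the immature-B-only regions they called 27.3% and 31.7%, a mean of 29.5% ± 3.12. The ranges of the 2 libraries did not overlap. Of all merged regions plasma cells 1 and 2 called 50.6% and 50.3%, a mean of 50.4%, so both group-only means lay below it. Of the regions called in all 4 libraries they called 94.4% and 93.9%. Both plasma cell lists held 2536 pc-BMAC-only (37.4%) and 3385 immature-B-only regions (21.3%), and neither held 3054 (45.1%) and 9904 (62.4%). With a rule that plasma cell peaks cover 50% or more of the region, the means were 29.0% and 13.5%.

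Width moved with this share. Among regions from 150 bp to under 300 bp, plasma cells 1 and 2 called 23.7% and 16.4% of those of pc-BMACs and 8.48% and 10.9% of those of immature B cells. Among regions of at least 1200 bp the values were 83.2% and 74.6% against 68.7% and 74.1%. Within every one of the 4 width classes, each plasma cell library had the larger share for pc-BMAC-only regions, but in the widest class plasma cell 2 differed by less than 1 percentage point. The part of width in the overall shares was not tested beyond these classes.

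**Figure D2:**
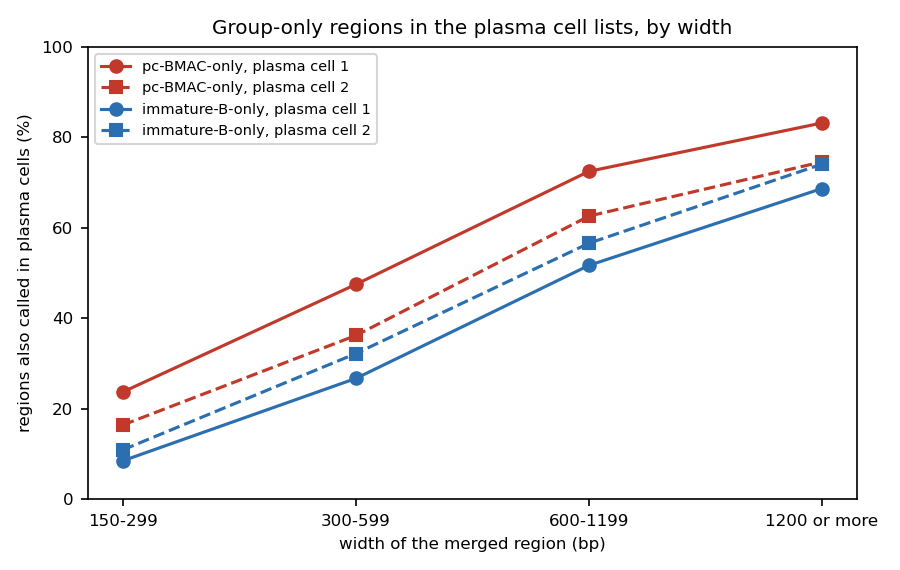
Share of group-only regions that each plasma cell library also called (vertical axis, percent) by width of the merged region (horizontal axis, bp). Red lines are pc-BMAC-only and blue lines immature-B-only regions, circles plasma cell 1 and squares plasma cell 2. Shares are larger for wide regions in both directions, and the directions nearly meet at 74.6% and 74.1% in the widest class for plasma cell 2.

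Of the merged regions, 62373 (94.5%) could be assigned to the nearest protein-coding or immunoglobulin constant gene interval within 100 kb, and 15126 genes received at least 1 region. Of the assigned regions 10.5% were pc-BMAC-only and 23.0% immature-B-only, which is the background for every share of group-only regions that follows. Both pc-BMAC lists had more called regions than either immature B list at 1517 genes (10.0%), and both immature B lists had more at 4942 genes (32.7%). These shares are the background for counts of genes whose libraries did not overlap. They include many genes with few regions, where libraries tie more easily, and were not matched to the number of regions of listed genes. Assignment is by distance alone and does not show which gene a region acts on. Plasma cell totals at a gene or list count only these merged regions, so peaks called in plasma cells alone are left out. The median gene had 2 regions. At 1986 genes there was at least 1 region in each direction.

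By the rule for named genes, the 12 genes taken for pc-BMAC-only regions were Atxn1, Cacna1e, Foxp1, Hivep3, Cpeb3, Etv6, Zbtb20, Fndc3b, Tmem154, Med27, Rbm47 and Chst1, the last by its larger net count over Fut8, Sik3, St6gal1 and Znrf3, which also had 11. They were chosen for that number, so their counts are a description. Atxn1, which encodes the transcriptional regulator ataxin-1, came first: pc-BMACs 1 and 2 had 37 and 30 called regions there, immature B cells 19 and 16. Of its 47 regions 18 were pc-BMAC-only and 5 immature-B-only, and both plasma cell lists held 12 of the 18. The widest of them covered chr13:45832365-45833726 inside the gene.

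Cacna1e, a subunit of a voltage-gated calcium channel, had 34 and 30 regions in the pc-BMAC lists against 22 and 17, with 16 regions of pc-BMACs alone. Only 3 of those 16 were in both plasma cell lists and 9 were in neither. Hivep3, a large zinc finger protein, had 40 and 34 regions against 28 and 20, and 12 of its 15 pc-BMAC-only regions were in neither plasma cell list. Of the merged regions, plasma cells 1 and 2 called 18 and 12 at Cacna1e and 20 and 17 at Hivep3. Peaks of plasma cells alone are not in these totals, so they are not ranked against the other populations.

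Chst1, a sulfotransferase that modifies keratan sulfate, had a wide gap: 17 and 14 regions in pc-BMACs, 1 and 2 in the immature B lists and 6 in each plasma cell list. Its 11 pc-BMAC-only regions ran from 54.6 kb on one side of the gene to 75.9 kb on the other, and the widest, at chr2:92599192-92600739, overlapped the gene. Cpeb3, which controls translation of bound mRNAs, had 25 and 21 regions against 9 and 10. For the ETS family repressor Etv6 the counts were 29 and 26 against 17 and 13. Med27, a subunit of the Mediator complex, had 18 and 20 against 6 and 5, the RNA-binding protein Rbm47 24 and 20 against 9 and 11, and Tmem154 22 and 19 against 8 and 7. No library of one population reached the other at these 5 genes, which were chosen for their number of pc-BMAC-only regions. Over all genes with a region, both pc-BMAC lists were higher at 10.0%.

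**Figure D3:**
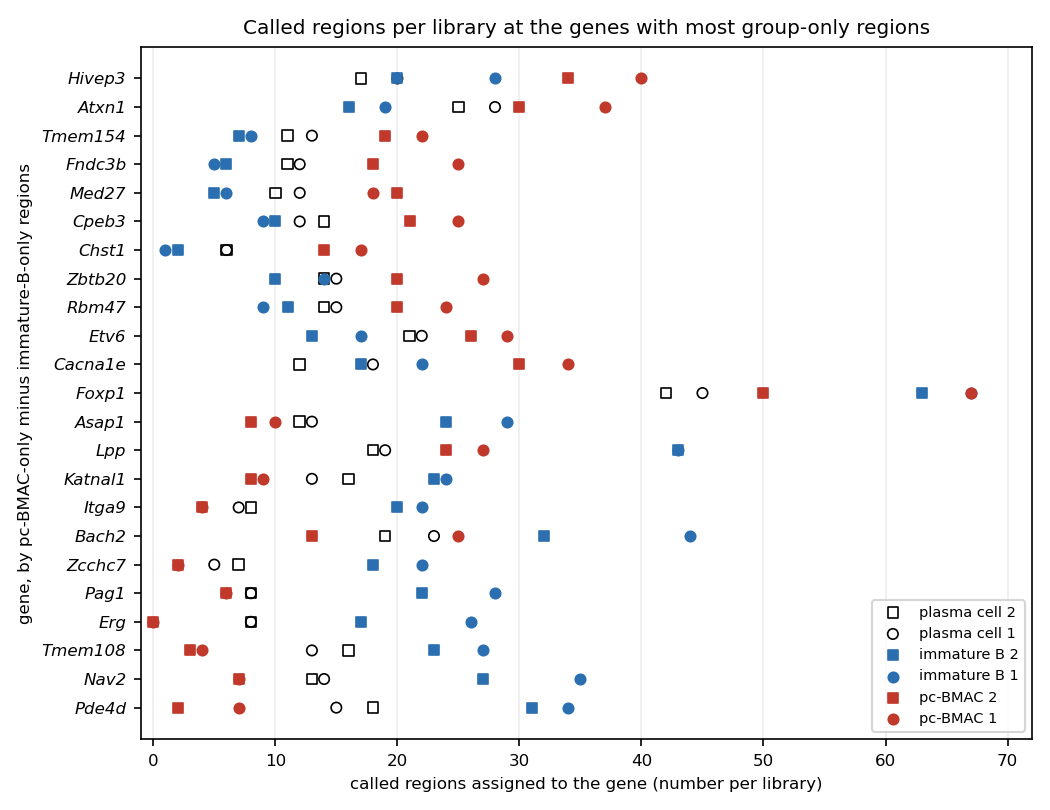
Called regions per library (horizontal axis, number) at the 23 genes taken for most group-only regions in either direction (vertical axis), sorted by pc-BMAC-only minus immature-B-only regions. Red marks are pc-BMACs, blue marks immature B cells and open marks plasma cells, with circles for library 1 and squares for library 2. At Chst1 pc-BMACs had 17 and 14 regions against 1 and 2, at Erg none against 26 and 17, and at Foxp1 the populations overlapped.

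Across 16 gene lists, 4 had more pc-BMAC-only than immature-B-only regions and 12 the opposite. All assigned regions leaned to immature B cells too, with 10.5% and 23.0%, so this split alone does not set the lists apart. The plasma cell list stood at one end, with 27.5% of its 233 regions pc-BMAC-only and 10.3% immature-B-only, and the early B precursor list at the other, with 6.67% and 40.0% of 165. The secretory, erythroid and housekeeping lists were the other 3 with more pc-BMAC-only regions, by 7, 2 and 3 regions. With lists of equal length, when the background was 16.1% and 15.1%, the plasma cell list had 38.8% and 8.46%, and the early B precursor list 10.4% and 36.8%. The lists were chosen with results of these data known, so their shares describe these libraries.

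**Figure D4:**
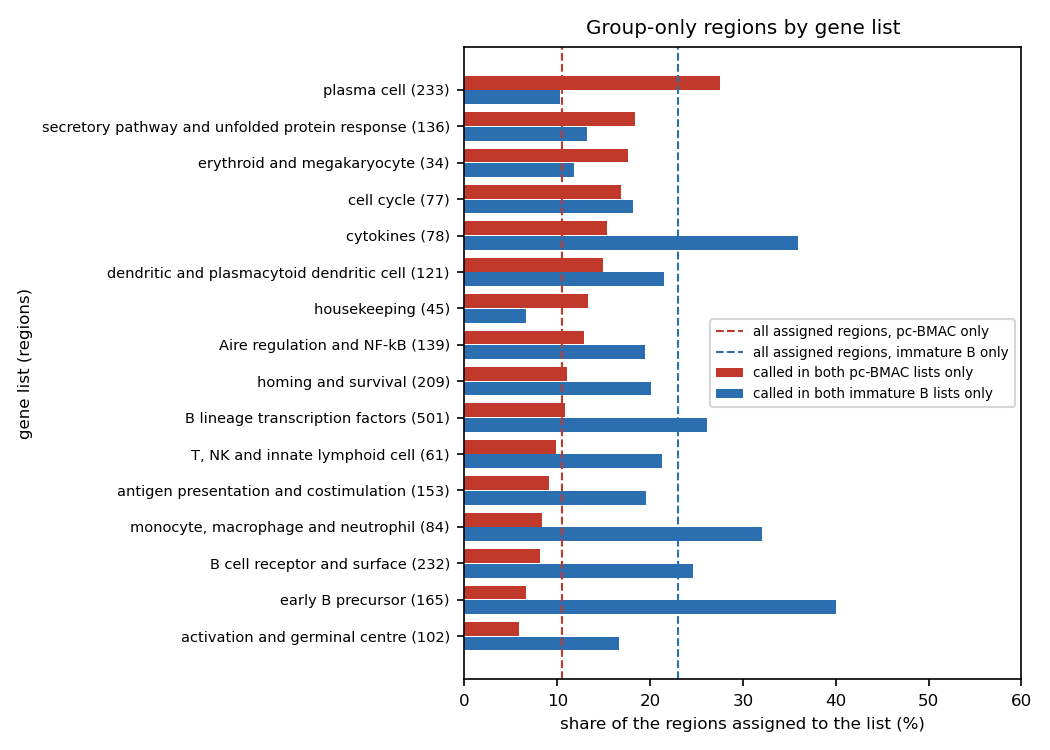
Share of the regions of each gene list (vertical axis, number of regions in brackets) that were called in both pc-BMAC lists alone (red) or both immature B lists alone (blue), in percent. Dashed lines give the same shares over all assigned regions, 10.5% and 23.0%. The plasma cell list reaches 27.5% in red and the early B precursor list 40.0% in blue.

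Plasma cell genes held 64 pc-BMAC-only and 24 immature-B-only regions. All libraries of pc-BMACs exceeded those of immature B cells at 10 of the 21 genes, with the reverse at 5. Over all genes with a region, the shares were 10.0% and 32.7%. Summed over the list, pc-BMACs had 178 and 154 called regions, immature B cells 113 and 99, and plasma cells 138 and 128. Both plasma cell lists held 31 of the 64 and neither held 26. The list kept its direction under all 11 alternatives, with an excess of 24 to 73 regions.

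Fndc3b, a fibronectin type III protein of the endoplasmic reticulum membrane, was called in 25 and 18 regions by pc-BMACs, 5 and 6 by immature B cells, and 12 and 11 by plasma cells. Its 12 group-only regions were all of pc-BMACs. Zbtb20, a zinc finger factor that supports plasma cell survival, had 27 and 20 against 14 and 10, with 13 pc-BMAC-only and 3 immature-B-only regions. Most regions of Zbtb20 lie far from its start sites: by nearest start site the gene held 1 immature-B-only region and none of pc-BMACs.

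Ell2, the elongation factor that favours the secreted form of immunoglobulin mRNA, had 16 and 14 regions against 5 and 4. All 7 group-only regions were of pc-BMACs, the widest at chr13:75738647-75741743 inside the gene and called in both plasma cell lists. Tent5c, a poly(A) polymerase that lengthens immunoglobulin mRNAs, had 15 regions in each pc-BMAC list, 5 and 4 in the immature B lists, and 14 and 12 in plasma cells. Of its 7 pc-BMAC-only regions 5 were in both plasma cell lists, and the widest, chr3:100477361-100483447, spanned 6087 bp of the gene.

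The regulators that define the plasma cell stage differed little in number of regions but differed in single elements. Xbp1, the driver of the secretory programme, had 6 regions in each pc-BMAC list and 5 and 4 in immature B cells. Its promoter was called in all libraries, and its only group-only region was of pc-BMACs, 5055 bp at chr11:5523753-5528807 over the end of the gene, called in both plasma cell lists as well. Prdm1 (Blimp-1, the repressor of the B cell programme) had 13 and 12 regions against 14 and 16 for immature B cells, with 4 pc-BMAC-only and 6 immature-B-only regions interleaved along the locus. The widest of each were chr10:44439603-44441106 and chr10:44526800-44527563. The immature-B-only excess at Prdm1 turned into an excess of 4 for pc-BMACs when regions went to the nearest start site.

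Irf4, a regulator of plasma cell fate, had 3 regions in each pc-BMAC list and 4 in each immature B list. Most of its gene body lay in a merged region of 14968 bp called in all 4 libraries, and an immature-B-only region of 2099 bp lay at chr13:30765853-30767951 over the far end. Sdc1, which encodes the sorting marker CD138, had 6 and 7 regions against 11 and 8. Its promoter was called in all libraries, although immature B cells were sorted as CD138-, and the 1 pc-BMAC-only region lay at chr12:8790275-8791714 inside the gene.

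Tnfrsf13b and Tnfrsf17 differed at the promoter itself. Tnfrsf13b, the gene of the sorting marker TACI, had 8 and 7 regions in either population, and 4 elements upstream of the gene were called in all 4 libraries. The region of 1796 bp over its promoter, chr11:61125928-61127723, was called in pc-BMACs and plasma cells and in neither immature B list, and it kept that pattern under all 9 alternatives that change the calls. At Tnfrsf17 pc-BMACs had 4 regions each and immature B cells 2 and 1. The promoter region, chr16:11313431-11314113, and an element 26.8 kb away were of pc-BMACs alone, while a region inside the gene was called in all 4. Jchain had 3 regions in each pc-BMAC list against 1 and 0. Tnfrsf17 and Jchain are named here after their calls were seen.

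Aire itself had no group-only region. Its gene lies at chr10:78030022-78043610, and pc-BMACs 1 and 2 had 2 and 3 called regions there, immature B cells 3 each and plasma cells 3 each. The promoter lay in a region of 4474 bp, chr10:78043277-78047750, and this region and a second one 0.414 kb beyond the other gene end were called in all 6 libraries. A further region, 3.75 kb from the gene, was called in every library but pc-BMACs 1. Among the merged regions, the sorted populations that lack the reporter signal thus had the same calls at Aire as the one that carries it, apart from that region.

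Genes of Aire regulation and NF-kB signalling held 18 pc-BMAC-only and 27 immature-B-only regions of 139, or 12.9% and 19.4%. The first share lay above the background of 10.5% and the second below that of 23.0%. Tnfaip3, an inhibitor of NF-kB, had 13 regions in each pc-BMAC list and 19 and 18 in immature B cells, with 6 immature-B-only regions. Hipk2, a kinase reported to act on Aire, had 9 and 6 against 12 and 13. Tnfsf11 (RANKL) had no region in pc-BMACs and 2 and 3 in immature B cells. The promoter of Ltbr, the lymphotoxin receptor of the non-canonical pathway, was its only region and was called in pc-BMACs and plasma cells and in neither immature B list. The list's direction did not hold throughout: the excess turned to 4 and 1 regions for pc-BMACs with the widest 34070 and 17035 peaks, to 2 without pc-BMACs 2 and to 3 with regions overlapping the gene only.

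Secretory pathway and unfolded protein response genes held 25 pc-BMAC-only and 18 immature-B-only regions of 136 (18.4% and 13.2%), and the promoters of all 22 members with a window were called in all 4 libraries. Ern1 and Atf6, sensors of the response, held 8 and 5 of the 25. Ern1 (IRE1, the kinase and nuclease that splices Xbp1 mRNA) had 14 and 13 regions against 9 and 6, and 5 of its pc-BMAC-only regions were in both plasma cell lists. Atf6, a membrane-bound transcription factor of the same response, had 15 and 13 against 11 and 6. Sel1l, of the machinery that retrieves misfolded proteins, had 6 and 7 against 3 and 3. At Dnajb9, a chaperone partner, the 4 group-only regions were of immature B cells. Of the list's 25 pc-BMAC-only regions 13 were in both plasma cell lists, and of its 18 immature-B-only regions 1 was. The excess of 7 became a deficit of 5 without immature B cells 2 and of 8 by nearest start site.

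In the direction of immature B cells, Pde4d, a cAMP phosphodiesterase, and Foxp1 had most group-only regions, 23 each. Pde4d had 7 and 2 called regions in pc-BMACs, 34 and 31 in the immature B lists, and 15 and 18 in plasma cells. It had no pc-BMAC-only region. Nav2, a cytoskeletal protein, had 7 in each pc-BMAC list against 35 and 27, and Tmem108 4 and 3 against 27 and 23. Pag1, an adaptor that anchors the Src inhibitor Csk, had 6 each against 28 and 22, and 14 of its 17 immature-B-only regions were in neither plasma cell list. These genes were chosen for these counts.

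Lpp, Asap1, Katnal1 and Itga9 had 13 to 14 more immature-B-only than pc-BMAC-only regions each. With the widest 34070 and 17035 peaks of each library Lpp had 1 and 2 more pc-BMAC-only than immature-B-only regions. Zcchc7 had 2 regions in each pc-BMAC list and 22 and 18 in immature B cells, with 15 immature-B-only regions, 10 of them in neither plasma cell list. Its interval, chr4:44756558-44932215, lies next to Pax5 at chr4:44524748-44710694. Asap1, Katnal1 and Itga9 also had 15 immature-B-only regions each. Gse1 had 15 too and was left out of the 12 by its smaller net count.

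**Figure D5:**
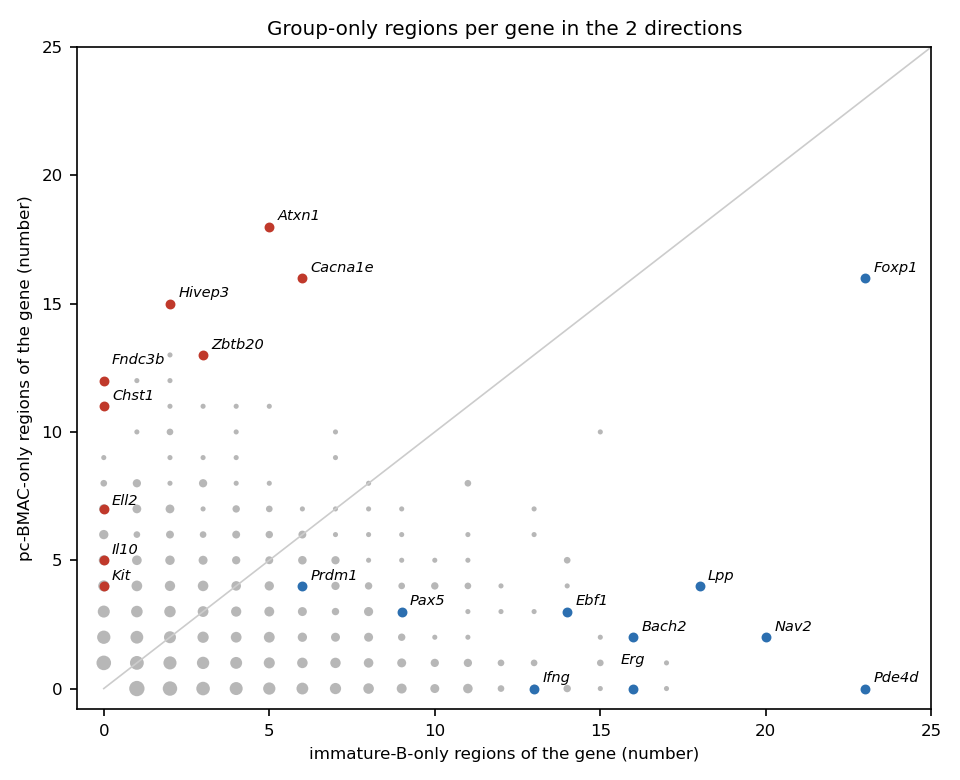
Number of pc-BMAC-only regions (vertical axis) against immature-B-only regions (horizontal axis) per gene, with larger grey points where more genes share a position and named genes in red or blue by the direction with more regions. The line marks equal numbers. Chst1, Ell2 and Fndc3b lie on the vertical axis and Pde4d, Erg and Ifng on the horizontal one, while Foxp1 has 16 and 23.

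B lineage transcription factors held 54 pc-BMAC-only and 131 immature-B-only regions of 501, or 10.8% and 26.1%, close to the background in both. The libraries were apart with immature B cells higher at 12 of the 21 genes and with pc-BMACs higher at 1, against 32.7% and 10.0% of all genes. These 21 genes shared 501 regions, whereas the median gene had 2, so the gene counts are not like for like. Summed over the list, pc-BMACs had 296 and 229 called regions, immature B cells 384 and 340, and plasma cells 250 and 238. Bach2, a repressor of Prdm1, had 25 and 13 pc-BMAC regions against 44 and 32, with 16 immature-B-only regions, the widest at chr4:32169612-32172000. Bcl11a, required for early B lineage choice, had 10 and 7 against 28 and 21. Its promoter lay in an immature-B-only region of 2971 bp, chr11:24079625-24082595, which kept that pattern under all 9 alternatives that change the calls.

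Ebf1, which opens B lineage chromatin, had 24 and 18 pc-BMAC regions against 33 and 32, with 14 immature-B-only and 3 pc-BMAC-only regions. At Pax5, the guardian of B cell identity, the counts were 7 and 5 against 15 and 14, with 9 and 3. The widest immature-B-only region, 2493 bp at chr4:44707957-44710449, was in neither plasma cell list. It lay inside the gene, near the end of its interval at chr4:44710694. The pc-BMAC-only region chr4:44624318-44625203 was in both plasma cell lists. Called at Pax5 in all 4 libraries were 2 regions of more than 5 kb. Its promoter windows were called in pc-BMACs 1, both immature B lists and plasma cell 1.

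Foxp1, a forkhead repressor, carried most merged regions of the named genes, 98, and was among the 12 genes with most regions in both directions, with 23 immature-B-only and 16 pc-BMAC-only regions. The pc-BMAC totals of 67 and 50 overlapped those of immature B cells, 67 and 63. Of the 16 pc-BMAC-only regions 9 were in neither plasma cell list, and of the 23 immature-B-only regions 16 were. Foxp1 thus differed by element and not in number of called regions.

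B cell receptor and surface genes held 19 pc-BMAC-only and 57 immature-B-only regions of 232, or 8.19% and 24.6%. The background was 10.5% and 23.0%. Prkcb, a kinase of receptor signalling, had 10 and 4 pc-BMAC regions against 19 and 17, with 8 immature-B-only regions. Cr2, the complement receptor CD21, had 2 each against 8 and 6, and Bank1, an adaptor, 12 and 7 against 14 and 12, so the Bank1 totals touched at 12.

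Several B cell antigens kept called chromatin in pc-BMACs. Ighm, the IgM heavy chain constant gene, had 1 region, of 3766 bp at chr12:113425354-113429119, in all 6 libraries. Ptprc, which encodes the phosphatase CD45 and its B220 form, had 14 and 9 regions against 16 and 14 for immature B cells, with 2 and 5 group-only regions. A promoter window counts as called in a library here when a peak of that library overlaps it. Of the 7 B cell markers with a window (Pax5, Ebf1, Cd79a, Cd22, Blnk, Cr2 and Fcer2a), pc-BMACs 1 and 2 had 6 and 2 called, immature B cells 7 and 6, and plasma cells 5 and 4. The 2 pc-BMAC libraries thus differed from each other by 4 of these 7 promoters. Of the 8 plasma cell markers with a window, both pc-BMAC lists had all 8 and both immature B lists 5, lacking Tnfrsf17, Tnfrsf13b and Jchain. Tnfrsf13b and Sdc1, which are among the 8, encode the sorting markers TACI and CD138, so this count is a description.

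Early B precursor genes had the largest immature-B-only share of any list, 66 of 165 regions (40.0%), with 11 of pc-BMACs alone, and kept the direction under all 11 alternatives. Immature B cells exceeded pc-BMACs in all libraries at 13 of the 16 genes with a region, against 32.7% of all genes. Summed over the list, pc-BMACs had 58 and 40 called regions, immature B cells 139 and 108 and plasma cells 68 and 69. Both plasma cell lists held 22 of the 66, or 33.3%, against 21.4% of all assigned immature-B-only regions.

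Erg, an ETS factor of haematopoietic stem and progenitor cells, had no called region in either pc-BMAC list, 26 and 17 in the immature B lists and 8 in each plasma cell list. All 16 of its group-only regions were of immature B cells, and both plasma cell lists held 7 of them. The widest was chr16:95426982-95429087, inside the gene. Il7r, Igll1, Rag1 and Rag2 also had no called region in either pc-BMAC list. Immature B cells 1 and 2 had 8 and 6 regions at Il7r, 3 each at Igll1, 4 and 2 at Rag1 and 1 each at Rag2. Plasma cells 1 and 2 had 3 and 4, 3 and 2, 0 and 1, and 1 each, so these loci were called in plasma cells that share the CD138+TACI+ gate but not in pc-BMACs.

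Arpp21, a cyclic AMP-regulated phosphoprotein of immature lymphocytes, had 2 in each pc-BMAC list against 13 and 9, with 7 immature-B-only regions. Sox4, needed for pro-B cell development, had 5 and 4 against 12 and 11, and Cd2, an adhesion molecule, 3 and 2 against 11 and 11. With the widest 17035 peaks Sox4 had 1 more pc-BMAC-only region. The list had 1 clear exception. Kit, the receptor for stem cell factor, had 5 regions in each pc-BMAC list, 1 and 0 in the immature B lists and 3 and 2 in plasma cells. Its 4 group-only regions were all of pc-BMACs, and the widest, 3194 bp at chr5:75574257-75577450, lay over its promoter and was called in both plasma cell lists. The Kit promoter kept that pattern under all 9 alternatives that change the calls. Kit and the recombinase and receptor loci were picked out after their calls were seen.

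Antigen presentation and costimulation genes held 14 pc-BMAC-only and 30 immature-B-only regions of 153, or 9.15% and 19.6%. Both shares lay below the background of 10.5% and 23.0%. Ciita, the master activator of MHC class II genes, had 5 and 3 pc-BMAC regions against 7 and 8, and 3 regions inside the gene were of immature B cells alone, the widest at chr16:10508130-10509774. H2-Aa, an MHC class II chain, had 3 each against 5 each. Marchf1, a ligase that removes MHC class II from the surface, had 6 and 5 against 12 each, and Cd83, which protects MHC class II from it, 9 and 7 against 16 and 14. Cd80 showed both directions next to each other: the promoter region of pc-BMACs, chr16:38458619-38459161, and an immature-B-only region, chr16:38461545-38462578, and both plasma cell lists held both. Of the list's 14 pc-BMAC-only regions 10 were in both plasma cell lists, against 5 of its 30 immature-B-only regions.

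Cytokine genes held 12 pc-BMAC-only and 28 immature-B-only regions of 78, or 15.4% and 35.9%. Both shares lay above the background of 10.5% and 23.0%. Il10 held 5 of the 12 and Ifng 13 of the 28. Il10, the anti-inflammatory cytokine that plasma cells can secrete, had 8 regions in each pc-BMAC list, 4 and 3 in the immature B lists and 8 in each plasma cell list. Its 5 pc-BMAC-only regions lay in a row on one side of the gene, 3.58, 8.32, 15.8, 19.7 and 25.4 kb away, each between 1031 and 1247 bp wide, and both plasma cell lists held all 5. The region over the gene itself, chr1:131018747-131023634, was called in all 4 libraries.

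Ifng, which encodes interferon gamma, gave the opposite picture. Each pc-BMAC list had 1 called region there, immature B cells had 15 and 14, and plasma cells 5 and 6. Of the 13 immature-B-only regions 10 followed each other without another merged region between them, over 66.1 kb from chr10:118441960-118508023, and the widest, chr10:118476509-118478337, was in neither plasma cell list. Il12a and Il12b, the subunits of interleukin 12, had 4 and 3 against 11 each and 1 each against 6 each. Il4 had 1 and 3 regions against 1 each, and its promoter region, chr11:53617144-53617620, was of pc-BMACs alone, with a call in plasma cell 1. The markers of T, NK and myeloid cells, which can express these cytokines, are given further on.

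Activation and germinal centre genes had 5.88% pc-BMAC-only and 16.7% immature-B-only regions, both below the background. Il21r, a cytokine receptor of germinal centre B cells, had 2 each against 6 and 7, and the activation antigen Cd69 8 and 5 against 11 each. Homing and survival genes had 11.0% and 20.1%. Both shares lay near or below the background. Immature B cells were higher in all libraries at 7 of the 22 genes and pc-BMACs at 1. Over all genes with a region the shares were 32.7% and 10.0%. Genes with immature B cells higher included S1pr1, the receptor that guides exit from tissue (12 and 9 against 19 and 18, all 7 group-only regions of immature B cells). Cxcr4, the bone marrow retention receptor (13 and 10 against 21 and 14), and the integrin chain Itgal (2 each against 7 and 6) were others. Bcl2, the survival factor, went the other way, with 8 pc-BMAC-only and 2 immature-B-only regions, but its totals of 30 and 19 against 22 and 16 overlapped. The homing list turned to an excess of 1 or 3 regions for pc-BMACs in 3 of the 11 alternatives.

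Cell cycle genes held 13 and 14 group-only regions of 77, 16.9% and 18.2%, beside a background of 10.5% and 23.0%. Mki67, a marker of proliferation, had 5 regions in each pc-BMAC list against 3 and 2, and Ccne1, the cyclin of S phase entry, 12 and 11 against 9 and 8. Cdk1 and Ccnb2, the kinase and cyclin of mitosis, had 1 each against 3 each. Housekeeping genes held 6 and 3 group-only regions of 45, and the promoters of all 15 members with a window were called in all 4 libraries.

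Markers of monocytes, macrophages and neutrophils had more called regions in both immature B lists than in either pc-BMAC list. Summed over the 18 monocyte, macrophage and neutrophil genes, pc-BMACs had 40 and 33 called regions, immature B cells 62 and 57 and plasma cells 43 and 43, with 7 pc-BMAC-only and 27 immature-B-only regions of 84 (32.1%). The largest part was at Itgam, the integrin CD11b, with 5 and 4 against 13 and 13, and at Adgre1, which encodes F4/80, with 1 each against 6 and 7. Of the 13 genes with a promoter window, pc-BMACs had 4 called in each list and immature B cells 5 and 6. No library of either population called the promoters of Lyz2, Elane, Mpo, S100a8, Csf3r or Ccr2. Ly6c2, with 5 each against 2 each, belongs to a family of near copies and is uncertain.

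T, NK and innate lymphoid genes had 34 and 27 called regions in pc-BMACs and 44 and 37 in immature B cells, and 15 of 21 genes had a region at all. Called promoters numbered 5 and 4 against 7 and 4 of 18, and those of Cd3d, Cd3e, Cd8a, Gzma, Gzmb and Ncr1 were called in none of the 4 libraries. The promoter of Prf1, perforin, was of immature B cells alone. Dendritic and plasmacytoid dendritic cell genes had 77 and 70 against 91 and 85, with Itgax (CD11c) at none in pc-BMACs against 5 and 3, and Siglech at 1 and 2 against 7 and 7. Tcf4, which the dendritic and B lineages share, had 23 and 18 against 24 and 23. Irf8, Spib, Flt3 and Ccr9, 4 of the 16 dendritic genes, also stand in other lists. Called dendritic promoters numbered 4 and 5 in pc-BMACs and 6 and 6 in immature B cells, of 11. Those of Flt3, Batf3, Bst2 and Irf8 were called in all 4 libraries and those of Itgax, Zbtb46, Xcr1, Clec9a and Ccr9 in none. The immature-B-only shares of the dendritic and the T and NK lists, 21.5% and 21.3%, lay below the 23.0% of all assigned regions. Erythroid and megakaryocyte genes had 20 and 19 against 24 and 17 regions, so the populations overlapped, with 6 pc-BMAC-only and 4 immature-B-only regions of 34. Slc4a1, the anion exchanger of red cells, had 5 and 6 regions in pc-BMACs, 1 each in immature B cells and 5 and 4 in plasma cells, and its 4 group-only regions were of pc-BMACs. Gfi1b, a repressor of the erythroid and megakaryocyte lineages, had 1 each against 5 and 4. Gata1, Hba-a1, Hbb-bt and Alas2 had no region. The part of other cells in the group-only regions was not tested.

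At promoters the populations differed rarely. Of 17492 protein-coding genes with a promoter window, 210 (1.20%) had a window in a pc-BMAC-only region and 364 (2.08%) in an immature-B-only region. Both plasma cell lists held 83 of the 210 (39.5%) and 135 of the 364 (37.1%), shares that lay closer together than those over all group-only regions. Among the 16 lists, 8 genes had a promoter of pc-BMACs alone: Tnfrsf13b, Tnfrsf17, Jchain, Cd80, Kit, Ltbr, Il4 and Ly6c2. Promoters of immature B cells alone belonged to 15 genes, among them Rag1, Rag2, Igll1, Il7r, Myb and Erg of the 14 early B precursor genes with a window, and Bcl11a and 1 start site of Ikzf1. Of these 23 genes 5 kept their class under all 9 alternatives that change the calls (Tnfrsf13b, Kit, Bcl11a, H2-Oa and Lta). Cut to the widest 34070 peaks, Rag1, Cxcr3, Fcgr1, Itgam and Ly6c2 left their class. Promoters of chromosome 18 were not analysed here.

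Motif letters were searched on both strands of the windows. The IRF pair was searched as GAAANNGAA, the EBF1 core as TCCCNNGGG, E-boxes as CAGCTG and as CAGGTG, the octamer as ATGCAAAT, the NF-kB core as GGGANTTTC, AP-1 as TGANTCA and the cyclic AMP element as TGACGTCA. The other motifs were the unfolded protein response core TGACGTGG, which shares its first 6 letters with the cyclic AMP element, the PU.1 core GAGGAAGT, the RUNX core TGTGGTTT, the STAT motif TTCNNNGAA, the GC box GGGCGG and the TATA box TATAAA. Windows of a class were counted as 1 per gene, while all windows are the 21238 distinct ones, with more than 1 for some genes. The EBF1 core was in 8.10% of the pc-BMAC-only windows, 12.4% of the immature-B-only windows and 7.26% of all windows. For the PU.1 core, a myeloid and B cell factor's motif, the shares were 2.38%, 5.49% and 3.13%, or 5, 20 and 665 windows. The GC box was in 62.9%, 49.5% and 46.2%, and the CAGGTG E-box in 28.1%, 21.2% and 19.7%. The octamer was in 0.952%, 1.10% and 1.66%, and the NF-kB core in 0.952%, 1.37% and 1.08%. For the IRF pair the shares were 7.62%, 6.59% and 8.13%, and for CAGCTG 21.9%, 18.1% and 15.6%. AP-1 was in 6.67%, 4.12% and 6.99%, the cyclic AMP element in 2.38%, 1.65% and 2.24%, and the unfolded protein response core in 1.43%, 0.549% and 0.706%. RUNX matched in 0.476%, 2.20% and 1.61%, STAT in 4.29%, 8.79% and 7.69%, and the TATA box in 8.57%, 12.4% and 12.6%. Of the promoter windows called in all 4 libraries, 7.81% held the EBF1 core, 70.4% the GC box and 17.0% the CAGGTG E-box. Base composition also differed, and its part in the motif shares was not tested: median GC content was 60.3% in pc-BMAC-only windows, 58.8% in immature-B-only windows, 62.0% in windows called in all 4 libraries and 56.3% in all windows.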

How the data were processed

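ATAC-seq was done on 2 libraries each of pc-BMACs, immature B cells and plasma cells. The authors deposited 1 peak list per library, without read counts. Bowtie2 2.3.3, HOMER 4.10, bedtools and mm10 appear in the submitters' processing notes with no role. Peak settings and what was intersected: not given in the sources used here. Per the labels' protocols, more than 1 sequencing platform was used, and which library ran on which is not given. Every deposited score is 1000, so scores were not used. Peak positions are the authors' deposited coordinates.

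With Python 3.11.15 and pandas 2.3.3, peaks of the 4 lists were merged from 1 bp of overlap, and a region counted as called when any peak of a library overlapped it. Regions went to the nearest RefSeq gene interval within 100 kb, and promoter windows of 300 bases to the merged region they overlap most. Steps were tested on simulated peaks. Members, gene lists and rules were chosen with earlier results of these data known. Genes named were 12 per direction taken for most group-only regions, with ties at the cut broken by the larger net count. Up to 4 per list by net count and the sorting and lineage genes were added, with the widest group-only region of each. Some of these genes are not reported here. Alternatives changed coverage, list length, distance, libraries and assignment.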

Additional observations from a re-analysis of the deposited data

How the results depend on the processing

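No paired analysis was possible because the counts come from no test. Requiring both same-numbered pairs gives the same regions by construction. Leaving out 1 library at a time gave 7145 to 10493 pc-BMAC-only regions, the most without pc-BMACs 2, and 16627 to 23521 immature-B-only regions, the most without immature B cells 2. The R2 libraries alone (pc-BMACs 1 and immature B cells 1) gave 11002 and 24405, the widest 34070 peaks 8025 and 8029, and the widest 17035 peaks 2940 and 2841. Lists with more pc-BMAC-only regions, 4 in the report, numbered 1 to 7 without 1 library, 8 with the widest 34070 peaks, and 2 with the R2 libraries or nearest start sites. Plasma cell shares at 50% cover were 29.0% and 13.5%. The cause was not tested.

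Net counts, pc-BMAC-only minus immature-B-only regions, reversed at 9 lists and at 5 named genes whose libraries did not overlap. Among named genes whose libraries overlapped, Foxp1, Bank1 and Ptprc changed sign under 1 alternative each, Tcf4 under 2 and Tcf7 under 3. With the widest 34070 peaks they were 4 for Aire and NF-kB and for dendritic genes, 1 for homing and Lpp, and 9 for cell cycle. With the widest 17035 peaks they were 1 for Aire and NF-kB, activation, T and NK genes, Sox4, Sdc1 and Prdm1, 2 for Lpp, and -1 for housekeeping and erythroid genes. Over the 4 ways of leaving out 1 library the net was -22 to 2 for Aire and NF-kB, -40 to 1 for homing, -5 to 2 for cell cycle, -5 to 3 for erythroid, -1 to 4 for housekeeping and -5 to 15 for secretory genes, each reversal of the last 3 being without immature B cells 2, and the R2 libraries gave erythroid genes -4. Regions overlapping the gene gave 3 for Aire and NF-kB and for homing and 1 for Sdc1. Nearest start sites gave -8 for secretory genes, -1 for Zbtb20, 1 for Sdc1 and 4 for Prdm1. 7 lists kept their direction throughout (B lineage, receptor, precursor, plasma cell, presentation, cytokine and monocyte). Unknown depth limits all absences.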

Other observations

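Several loci carried regions of both populations in numbers. At least 3 group-only regions in each direction were found at 247 genes and at least 5 at 51. Gse1 had 10 pc-BMAC-only and 15 immature-B-only regions, with totals of 37 and 29 in pc-BMACs and 46 and 39 in immature B cells. Cd44, a receptor for hyaluronan, had 5 in each direction, and its totals of 14 and 12 against 15 and 11 overlapped. Irf2, an interferon regulatory factor, had 6 in each direction, with 18 and 16 against 20 and 15. Fut8, the enzyme that adds core fucose to N-glycans, had 11 pc-BMAC-only and 5 immature-B-only regions, with 21 and 19 against 16 and 13. Celf2, an RNA-binding splicing regulator, had 10 and 7. These genes were picked after their values were seen.

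Of the 15126 genes with a region, some were called in 1 population alone. With no immature B call and at least 3 called regions in both pc-BMAC lists there were 13 genes, among them B3galt5 (8 and 6 regions), a galactosyltransferase, Wipf3 (7 and 6) and the axon guidance receptor Robo1 (4 and 4). With no pc-BMAC call and at least 3 in both immature B lists there were 233, among them Auts2 (17 and 11), Myl10 (13 and 13) and the kinase Prkg1 (14 and 12). Some group-only regions also followed each other along the genome. Runs of at least 5 neighbouring regions of the same kind numbered 28 for pc-BMACs, the longest of 7 regions, and 271 for immature B cells, the longest of 13. A pc-BMAC run of 7 spanned 91.2 kb at Atxn1 and another 75.0 kb at Med23 and Arg1, and one of 6 spanned 41.7 kb at Edem3, which trims glycans of misfolded proteins. By chromosome, the pc-BMAC-only share was between 9.23% and 11.4% on the autosomes and 7.83% on chromosome X.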
